A study of Mus musculus with 31 samples.

Results

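The uncoupling protein genes Ucp1, Ucp2 and Ucp3 were followed across 3 fat depots of mice before and during cold exposure. Members were the rows of the count tables whose RefSeq accession maps to one of these symbols, keeping the row with the highest total where a symbol has several. Each symbol had 1 row, so the family made up 3 of the 16656 gene symbols with a row: Ucp1 (NM_009463), Ucp2 (NM_011671) and Ucp3 (NM_009464).

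Uncoupling proteins are carriers of the inner mitochondrial membrane. UCP1 lets protons return to the matrix without passing through ATP synthase, so that respiration is released as heat. It marks brown adipocytes and the beige adipocytes that arise in some white depots, and its transcription is driven by noradrenaline acting through beta-adrenergic receptors and cyclic AMP. UCP2 is made in many tissues, with high levels in cells of the immune system, and UCP3 is made mainly in skeletal muscle and brown fat. Whether UCP2 and UCP3 conduct protons in cells is debated, and both have been linked to fatty acid use and to the control of reactive oxygen species.

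The animals were male C57BL/6J mice, 8 weeks old, all of which first spent 8 days at thermoneutrality, the temperature at which no extra heat has to be made. They were then killed at once (day 0) or after 2 or 4 days at 4 °C. RNA came from whole dissected interscapular brown fat (iBAT), inguinal white fat (iWAT) and epididymal white fat (eWAT), and no transgene or mutation is recorded for any group. There were 3, 4 and 3 iBAT libraries at days 0, 2 and 4, with 4, 3 and 5 of iWAT and 3, 3 and 3 of eWAT, 31 in all. Libraries are named here by depot and label number.

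Ucp1 lies on the plus strand of chromosome 8 (chr8:83290348-83298456, GRCm38.p6) with 6 exons. Ucp3 (chr7:100472991-100486432, 7 exons) and Ucp2 (chr7:100493337-100499629, 8 exons) stand one after the other on the plus strand of chromosome 7, with 6.9 kb from the end of Ucp3 to the start of Ucp2. The bases just before each gene's annotated start (RefSeq, GRCm38.p6) are shown because the 3 genes had distinct patterns of level over the depots. The windows are chr8:83290098-83290347 for Ucp1, chr7:100493108-100493336 for Ucp2 and chr7:100472741-100472990 for Ucp3, and capitals mark the motif matches.
Ucp1: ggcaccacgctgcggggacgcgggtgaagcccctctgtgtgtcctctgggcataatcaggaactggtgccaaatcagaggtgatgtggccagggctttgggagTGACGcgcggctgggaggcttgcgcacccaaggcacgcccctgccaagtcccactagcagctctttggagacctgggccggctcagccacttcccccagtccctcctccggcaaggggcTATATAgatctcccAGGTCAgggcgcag
Ucp2: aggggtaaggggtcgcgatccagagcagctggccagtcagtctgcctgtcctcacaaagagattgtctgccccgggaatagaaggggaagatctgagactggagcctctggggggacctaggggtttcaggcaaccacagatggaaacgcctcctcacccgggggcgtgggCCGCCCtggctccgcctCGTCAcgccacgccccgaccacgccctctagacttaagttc
Ucp3: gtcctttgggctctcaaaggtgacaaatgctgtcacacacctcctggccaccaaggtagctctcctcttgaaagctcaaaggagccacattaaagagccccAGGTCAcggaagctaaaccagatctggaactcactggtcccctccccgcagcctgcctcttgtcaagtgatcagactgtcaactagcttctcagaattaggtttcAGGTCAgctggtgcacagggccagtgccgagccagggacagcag

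The short motifs searched on both strands were AGGTCA (a half-site of nuclear receptors such as PPAR), TGACG (a half-site of the cyclic AMP response element), GGGCGG (the GC box), TATAAA (the TATA box) and TATATA, which reads the same on both strands. No 2 of the marked matches overlap. The Ucp1 window held TGACG from 147 to 143 bases before the start, TATATA from 28 to 23 and AGGTCA from 14 to 9. The Ucp2 window held CCGCCC, the GC box on the other strand, and CGTCA, the cyclic AMP half-site on the other strand, while the Ucp3 window held AGGTCA at 2 places. Such letters are common: of 32851 promoter windows of 250 bases, 14.0% held AGGTCA, 17.8% TGACG, 32.7% GGGCGG, 12.4% TATAAA and 5.25% TATATA. G and C made up 64.8% of the window printed for Ucp1, 63.3% for Ucp2 and 54.8% for Ucp3, against a median of 52.4% over all windows. CG pairs numbered 12, 13 and 3 in the printed windows, of which that of Ucp2 is shorter (229 bases), with a median of 6 over all windows. Matches describe the letters only.

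Libraries held 1.5 to 5.53 M counts (median 3.42 M). Levels are given as CPM, counts relative to a library size scaled by the TMM method, in parts per 1 M. Adipoq, the adipocyte hormone adiponectin, had 379 CPM or more in every library, and Cidea, whose protein sits on lipid droplets in brown adipocytes, had 135 to 642 CPM in iBAT, 5.99 to 177 CPM in iWAT and 0 to 1.23 CPM in eWAT. Within each depot, the first axis of spread between replicates held 55.4% (iBAT), 43.7% (iWAT) and 53.7% (eWAT) of the within-group variance. Each library was scored on the axis found in the other 2 depots, and 12 libraries had a high score (iBAT535, iBAT539, iBAT548, iWAT516, iWAT517, iWAT518, iWAT550, iWAT551, iWAT553, eWAT518, eWAT532 and eWAT538). The libraries iBAT548 and iBAT539 gave a count of 1 to only 57 and 159 features, where the rest of iBAT had 1014 to 1224, so a missing value there, read as 0, is not shown to be 0. Summed epididymis and testis markers (12 genes, all with a row) had 18200, 33200 and 30400 CPM in eWAT516, eWAT532 and eWAT551, against 161 to 2360 CPM in the other eWAT libraries. In iWAT555 they had 4500 CPM, against 1.11 to 776 CPM in the other iWAT libraries, and that library had the lowest sum of adipocyte markers in iWAT (5430 CPM). In whole tissue, fewer cells of a type and less RNA per cell cannot be told apart.

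Ucp1 was by far the most abundant member in brown fat, spanned about 2 orders of magnitude in inguinal fat and was low in epididymal fat. In iBAT its level was 9520, 5120 and 7820 CPM at day 0, then 28800, 41200, 11400 and 7120 CPM at day 2 (iBAT532, iBAT534, iBAT535 and iBAT539) and 17100, 31800 and 31100 CPM at day 4 (iBAT548, iBAT550 and iBAT555). The 3 day 4 libraries lay above all 3 of day 0, and 3 of the 4 day 2 libraries did, the exception being iBAT539. Here and below, the share of all genes whose groups separate in this way was not computed, so separation describes the libraries only. The lower 2 of day 2 and the lowest of day 4 were the high-score libraries.

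In iWAT the Ucp1 level was 231, 497, 72.9 and 45.7 CPM at day 0 (iWAT516, iWAT517, iWAT518 and iWAT522), then 8530, 6200 and 3440 CPM at day 2 (iWAT532, iWAT538 and iWAT539). At day 4 it was 5340, 5840, 1120, 3480 and 501 CPM (iWAT548, iWAT550, iWAT551, iWAT553 and iWAT555). All 8 cold libraries of iWAT lay above all 4 of day 0, but iWAT555 (501 CPM), one of the libraries with epididymis and testis markers, and iWAT517 of day 0 (497 CPM) were almost level. In eWAT the values were 2.59, 11.7 and 9.76 CPM at day 0, 1.76, 10.6 and 0.94 CPM at day 2 and 18.3, 0.485 and 43.5 CPM at day 4, and the days overlapped. These eWAT levels rest on 2 to 177 counts a library. The eWAT libraries with the high epididymis and testis markers, eWAT516, eWAT532 and eWAT551, had 2.59, 1.76 and 0.485 CPM of Ucp1, the lowest of day 0, the second lowest of day 2 and the lowest of day 4. Without these and iWAT555, Ucp1 exceeded its eWAT level by log2 differences of 9.47 to 11.99 in iBAT and 4.39 to 10.08 in iWAT over the 3 days, each still past the test.

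**Figure D1:**
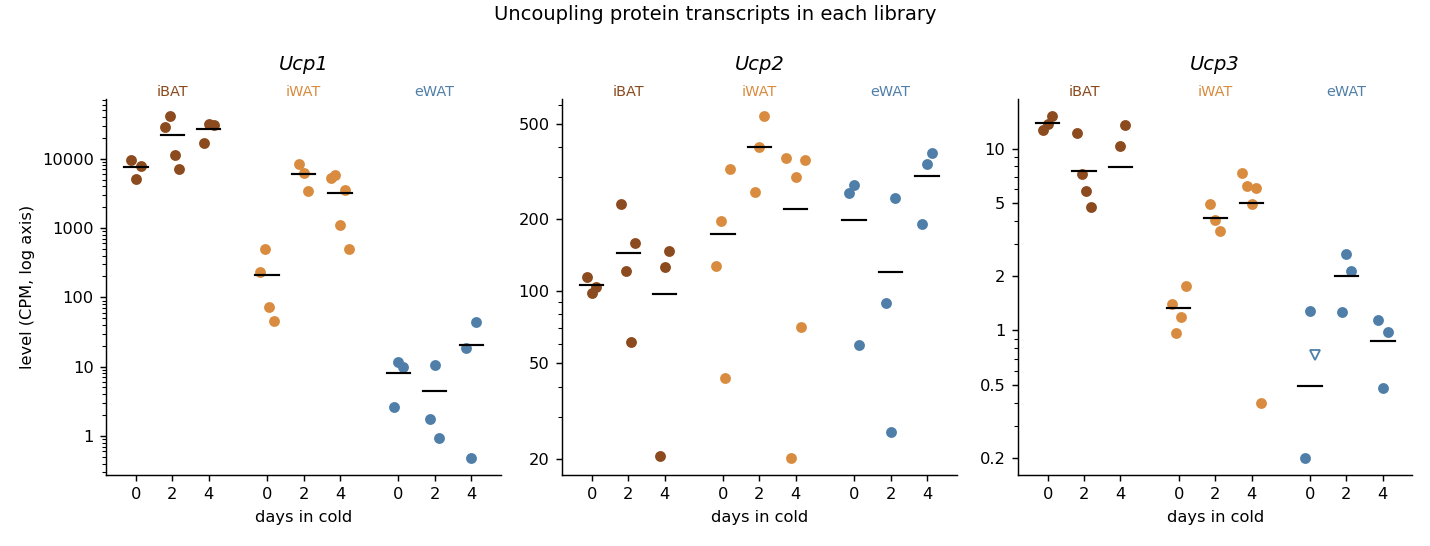
Levels of Ucp1, Ucp2 and Ucp3 in CPM (log axes that differ between panels) in each of 31 libraries, by depot and by days in the cold (0, 2 and 4). Points are libraries, bars are group means, and the open triangle marks the level that a count of 0 allows (0.732 CPM in eWAT518). The missing Ucp3 value of iBAT548 is not drawn and enters the mean as 0. Ucp1 separates the depots at day 0, and Ucp2 ranges overlap between the days of each depot. At day 0 Ucp3 is higher in iBAT, with 12.6 to 15.1 CPM, than in the white depots.

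At day 0 the 3 depots stood in the order iBAT, iWAT, eWAT for Ucp1, each step past the test. iBAT averaged 7490 ± 2220 CPM (SD, n = 3) and iWAT 212 ± 207 CPM (n = 4), which is 5.14 on the log2 scale (SE 1.05, adjusted p = 0.000994, edgeR's quasi-likelihood test in 1 fit of all 31 libraries). With eWAT at 8.02 ± 4.8 CPM (n = 3), iBAT stood 9.86 higher on that scale (SE 1.46, adjusted p = 6.09e-05), and iWAT exceeded eWAT by 4.72 (SE 1.15, adjusted p = 0.0101). At this day 17.9% of the 11041 genes tested passed for iBAT against iWAT, with 8.12% higher in iBAT. For iBAT against eWAT 10.3% passed, 5.07% in the upward direction, and for iWAT against eWAT 7.82%, with 5.02% upward. The step from iWAT to eWAT missed the threshold without eWAT516 (4.30, adjusted p = 0.0751, with 5.33e-06 to 0.0751 over 40 alternatives).

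In the cold, the estimated Ucp1 gap between iBAT and iWAT was smaller than at day 0, but this narrowing did not pass its own test, given below. At day 2 iBAT averaged 22100 ± 15800 CPM (n = 4) and iWAT 6060 ± 2550 CPM (n = 3), and the log2 difference of 1.87 did not pass (SE 0.99, adjusted p = 0.22), with iBAT539 at 7120 CPM inside the iWAT range. At day 4 iBAT was again above iWAT, with 26700 ± 8270 CPM (n = 3) against 3260 ± 2410 CPM (n = 5) and a log2 difference of 3.03 (SE 0.89, adjusted p = 0.0189). The gap to eWAT was wide on both days: iBAT exceeded eWAT by 12.30 in log2 terms (adjusted p = 9.72e-06) at day 2 and 10.32 (adjusted p = 3.95e-05) at day 4, and iWAT exceeded eWAT by 10.43 (adjusted p = 5.5e-05) and 7.29 (adjusted p = 0.000523). For iBAT against iWAT, 15.6% of genes passed at day 2 (5.87% higher in iBAT) and 17.6% at day 4 (5.83%). For iBAT against eWAT these shares were 17.8% (7.29% higher in iBAT) and 18.1% (6.67%), and for iWAT against eWAT 10.2% (5.03% higher in iWAT) and 9.94% (4.49%).

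Set in order of group means, Ucp1 ran from iBAT day 4, day 2 and day 0 through iWAT day 2, day 4 and day 0 to eWAT day 4, day 0 and day 2. Only 2 neighbouring pairs in this order had ranges that did not overlap, namely iWAT day 4 above iWAT day 0 and iWAT day 0 above eWAT day 4.

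The cold change within a depot was largest in iWAT, where the Ucp1 mean at day 2 was 28.6 times that at day 0 and the mean at day 4 was 15.4 times it. The log2 change was 4.82 (SE 0.94) at day 2, rank 2 of 9574 genes by p, and 3.95 (SE 0.87) at day 4, rank 6 by p, yet neither passed edgeR's test over all genes (adjusted p = 0.247 and 0.46). No gene passed in iWAT with that test on either day (0%), although 1020 and 793 genes had an unadjusted p under 0.05, and DESeq2 called 111 and 43. DESeq2 called Ucp1 on both days, with log2 changes of 4.83 (adjusted p = 1.66e-05) and 3.96 (adjusted p = 0.000168). Over the other alternatives the adjusted p ran from 0.0572 to 0.718 at day 2 and from 0.0629 to 0.966 at day 4.

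In iBAT the Ucp1 mean was 2.95 times that of day 0 at day 2 and 3.56 times at day 4. The log2 changes were 1.61 (SE 0.56, adjusted p = 0.277) and 1.91 (SE 0.59, adjusted p = 0.519). They did not pass with edgeR or with DESeq2, and over 19 alternatives the adjusted p ran from 0.0652 to 0.705 at day 2 and from 0.0828 to 1.0 at day 4. In this depot 13 of 8270 genes passed at day 2 (0.157%, with 0.133% higher in the cold) and none at day 4 (0%, with 581 at an unadjusted p under 0.05 and 83 called by DESeq2). Ucp1 took 0.451% to 0.861% of all counts in iBAT at day 0, 0.606% to 3.11% at day 2 and 1.58% to 2.36% at day 4.

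In eWAT the Ucp1 log2 change was -0.88 (SE 1.26) at day 2 and 1.36 (SE 1.23) at day 4, both with an adjusted p of 1. No gene passed on either day with edgeR (0%). Unadjusted p values under 0.05 numbered 106 and 277, and DESeq2 called 0 and 4 genes. Between day 4 and day 2 no depot changed in Ucp1 past the test, with log2 changes of 0.30 (SE 0.53) in iBAT, -0.87 (SE 0.79) in iWAT and 2.24 (SE 1.28) in eWAT.

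Whether the cold change differed between depots was tested in its own right. The Ucp1 change at day 2 was larger in iWAT than in eWAT by 5.71 on the log2 scale (SE 1.48), rank 4 of 11041 genes by p, but this did not pass over all genes with edgeR (adjusted p = 0.777). DESeq2 gave 5.62 and an adjusted p of 0.0112, against 0.326 to 1.0 over the other alternatives. The iBAT change minus the iWAT change was -3.27 (SE 1.32, adjusted p = 0.458) at day 2 and -2.11 (SE 1.31, adjusted p = 0.885) at day 4. No gene passed in any of these comparisons of changes with edgeR (0%). At day 2, 1153 genes had an unadjusted p under 0.05 for iBAT against iWAT, 474 for iBAT against eWAT and 589 for iWAT against eWAT, and DESeq2 called 92, 39 and 23.

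**Figure D2:**
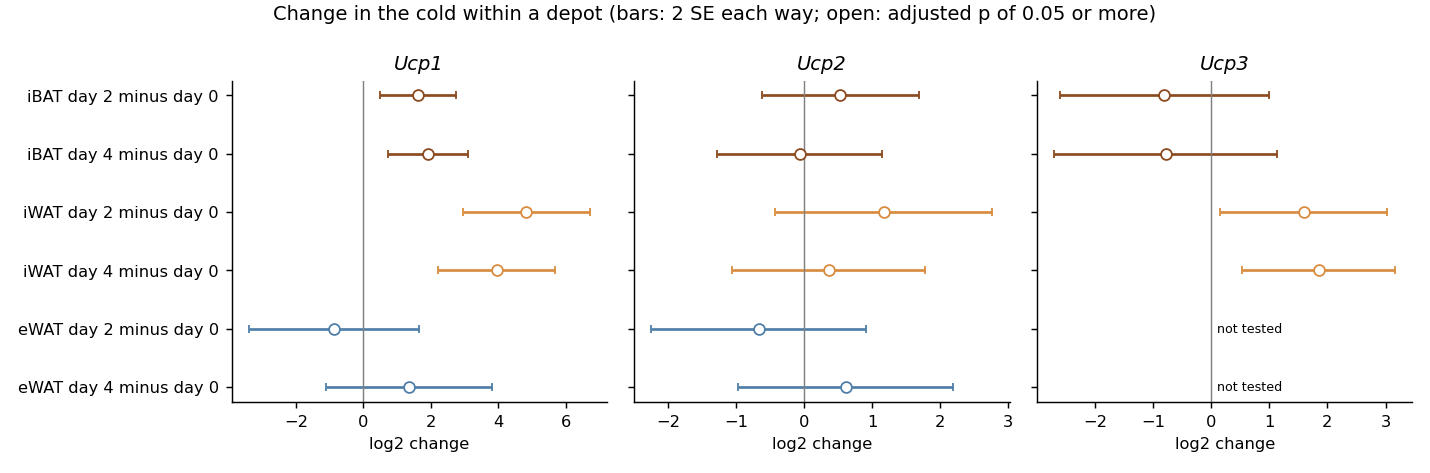
Log2 change at day 2 or day 4 minus day 0 within iBAT, iWAT and eWAT for Ucp1, Ucp2 and Ucp3, from edgeR. Bars span 2 SE on each side, and open points did not pass an adjusted p of 0.05. The Ucp1 changes in iWAT, 4.82 and 3.95, stand farthest from 0, and Ucp3 in eWAT was not tested.

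**Figure D3:**
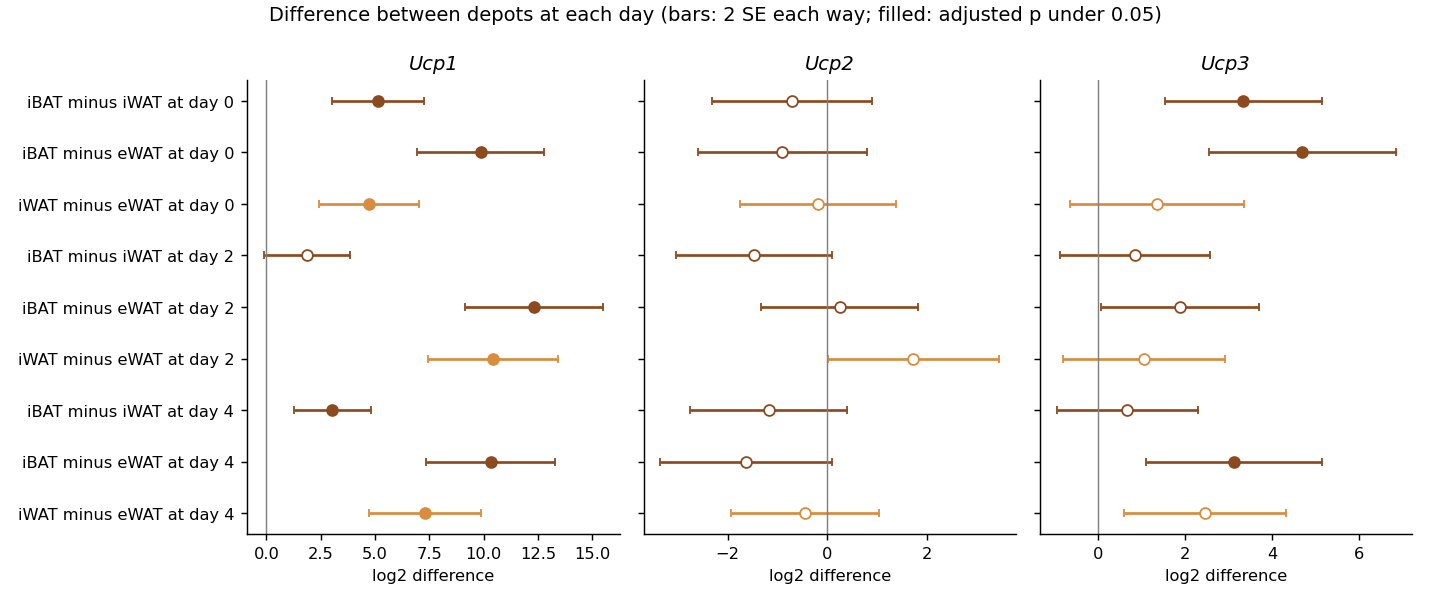
Log2 difference between depots at days 0, 2 and 4 for Ucp1, Ucp2 and Ucp3, first-named depot minus the other, from the fit of all 31 libraries. Bars span 2 SE on each side, and filled points passed an adjusted p of 0.05. For Ucp1, 8 of 9 differences are filled, for Ucp3 3 of 9 and for Ucp2 0 of 9.

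Ucp2 was present in all depots at like levels, with no depot difference and no cold change past the test. In iBAT it had 115, 98.3 and 104 CPM at day 0, 232, 122, 61.7 and 160 CPM at day 2 and 20.6, 126 and 147 CPM at day 4. In iWAT it had 128, 197, 43.3 and 323 CPM at day 0, 260, 399 and 537.8 CPM at day 2 and 360, 20.2, 298, 71.0 and 352 CPM at day 4. The eWAT values were 256, 277 and 59.6 CPM at day 0, 89.5, 25.8 and 246 CPM at day 2 and 191, 338 and 376 CPM at day 4. Within a depot the days overlapped in all cases, and all neighbours in the order of the 9 group means overlapped, from iWAT day 2 (399 ± 139 CPM, n = 3) down to iBAT day 4 (97.7 ± 67.6 CPM, n = 3).

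The Ucp2 log2 change at day 2 was 0.53 (SE 0.58) in iBAT, 1.17 (SE 0.80) in iWAT and -0.67 (SE 0.79) in eWAT. At day 4 it was -0.07 (SE 0.61), 0.36 (SE 0.71) and 0.61 (SE 0.79) in the same depots. The 2 SE on each side of the day 4 change allow -1.29 to 1.15 in iBAT, -1.06 to 1.78 in iWAT and -0.97 to 2.19 in eWAT. A fall of about 2-fold and rises of more than 2-fold were thus not excluded by these libraries. For the day 2 change in iWAT they allow -0.43 to 2.77. Between depots the estimate that stood farthest from 0 was iWAT minus eWAT at day 2, 1.73 (SE 0.86, adjusted p = 0.213), where all 3 iWAT libraries lay above all 3 of eWAT. All 4 iBAT libraries of day 2 lay below all 3 of iWAT (-1.47, SE 0.78, adjusted p = 0.223), and all 3 of day 4 lay below all 3 of eWAT (-1.63, SE 0.86, adjusted p = 0.188). The share of all genes with such separation was not computed, so it adds no support beside tests that did not pass. Of the day 2 libraries, iBAT535, iBAT539, eWAT532 and eWAT538 had a high score, and no iWAT library did. Over 40 alternatives iWAT minus eWAT at day 2 ran from 1.0 to 2.8 and iBAT minus iWAT from -1.92 to -0.51, with 0 called.

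The Ucp2 level within groups was set beside the library score, and no share of its spread was computed. The library with the highest score was the lowest of its group for Ucp2 in 8 of 9 groups, the exception being iWAT at day 2. For Ucp1 and for Ucp3 this held in 2 of 9 groups each, though the 3 lowest Ucp3 values in iBAT were those of its high-score libraries. Among the high-score libraries that did not top their group, iBAT539 had 160 CPM of Ucp2, iWAT517 197 CPM and iWAT551 298 CPM. The rest of these were iWAT516 with 128 CPM, iWAT553 with 71.0 CPM and eWAT532 with 89.5 CPM. The members were left out when libraries were scored, but Ucp1 and Ucp2 were among the 7938 genes from which the axes were found. The loading of Ucp2 on each depot's own axis stood at percentile 17.8, 3.99 and 2.29 of genes in iBAT, iWAT and eWAT. With the score as a covariate, Ucp2 at day 4 was lower in iBAT than in iWAT (log2 difference -1.64, adjusted p = 0.0347, against 0.302 without it) and lower in iBAT than in eWAT (-1.64, adjusted p = 0.0443, against 0.188). Over 40 alternatives these adjusted p values ran from 0.0347 to 0.654 and from 0.0443 to 0.493.

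**Figure D4:**
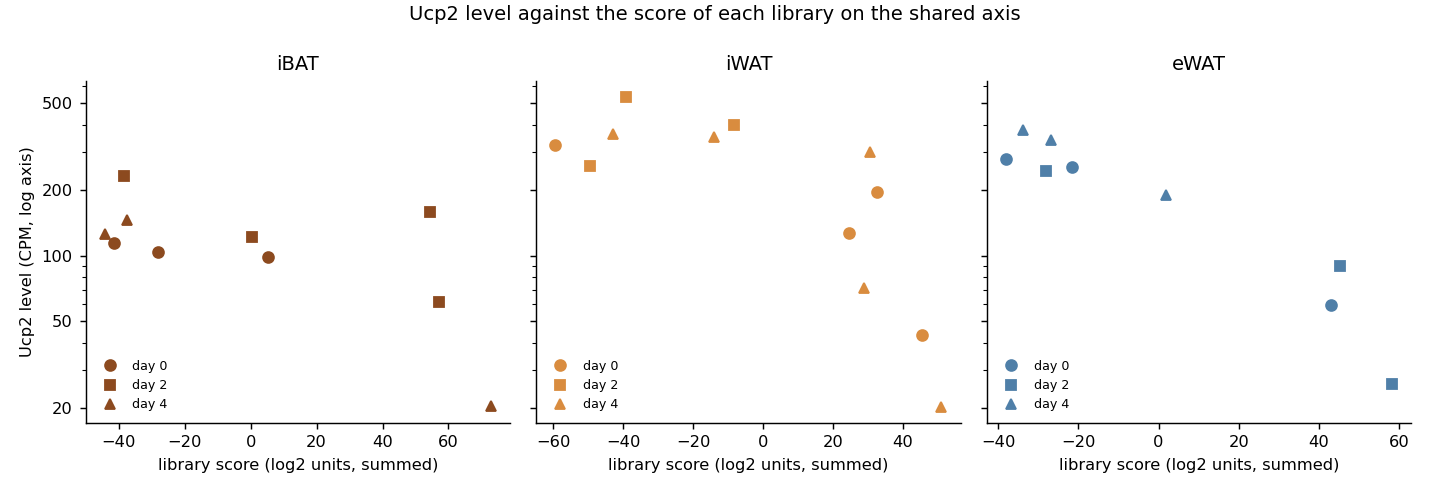
Ucp2 level in CPM (log axis) against the score of each library on the axis of the other 2 depots (projection of log2 CPM deviations), for iBAT, iWAT and eWAT, with circles, squares and triangles for days 0, 2 and 4. The lowest levels, 20.6 CPM in iBAT548, 20.2 CPM in iWAT550 and 25.8 CPM in eWAT538, belong to the library with the highest score in each depot.

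Immune cells, in which Ucp2 is well expressed, were unevenly represented. At day 0 the summed macrophage markers (8 of 12 listed genes with a row) had 90.4 to 105 CPM in iBAT, 462 to 889 CPM in iWAT and 127 to 283 CPM in eWAT. Summed lymphocyte markers (12 of 15 with a row) had 19.3 to 31.2, 2210 to 4300 and 18.2 to 60.5 CPM. The macrophage genes did not all follow their sum. Between iWAT and eWAT at day 0, 5 of 8 had a positive log2 difference and 3 a negative one (median 0.21). Only Laptm5 passed (3.17), where 5.02% of all genes were higher in iWAT. Adgre1 had 3.56 to 9.13 CPM in iWAT and 7.18 to 24.2 CPM in eWAT at that day. Csf1r, a receptor that defines macrophages, had no value in iBAT539 and iBAT548, where missing is not shown to be 0, and lay between 3.73 and 97.0 CPM elsewhere. None of the macrophage or lymphocyte genes passed within a depot at day 2 or day 4 against day 0, and the part of these cells in the Ucp2 level was not tested. Reads of Dnajb13, an antisense neighbour that overlaps longer models of Ucp2, cannot be told apart from Ucp2 if strand was not used. It had 0 to 2.36 CPM in all libraries but iWAT555, where it had 12.3 CPM.

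Ucp3 was the scarcest member by group means, and at thermoneutrality it stood higher in brown fat than in the white depots. In iBAT it had 12.6, 13.6 and 15.1 CPM at day 0 (31, 45 and 51 counts), 12.3, 7.26, 5.83 and 4.76 CPM at day 2 (16, 14, 12 and 7 counts). At day 4 it had 10.4 and 13.5 CPM (17 and 29 counts) in iBAT550 and iBAT555, and a missing value, read as 0, in iBAT548. All 4 libraries of day 2 lay below all 3 of day 0, the nearest pair being 12.3 and 12.6 CPM. The lower 2 of day 2, iBAT535 and iBAT539, and iBAT548 of day 4 were the high-score libraries. Because missing is not shown to be 0 in iBAT548, no upper limit is given for it.

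In iWAT the Ucp3 level was 1.40, 0.971, 1.19 and 1.77 CPM at day 0 (2 to 6 counts), 4.94, 4.06 and 3.51 CPM at day 2 (15 to 17 counts) and 7.36, 6.27, 4.98, 6.05 and 0.4 CPM at day 4 (3 to 27 counts). Of the 8 cold libraries 7 lay above all of day 0, and iWAT555, the library that was also lowest for Ucp1 at day 4, lay below them. Without iWAT555 the log2 change at day 4 was 2.18 for Ucp3 (adjusted p = 0.0714, with 0.0714 to 0.999 over 21 alternatives) and 4.22 for Ucp1 (adjusted p = 0.0629). In eWAT Ucp3 had 0.2, 1.28 and 0 CPM at day 0, 1.26, 2.64 and 2.12 CPM at day 2 and 1.14, 0.485 and 0.984 CPM at day 4, on 0 to 9 counts a library. At such counts it was left out of the eWAT test by the filter on low counts. In the iWAT fit and the fit of all 31 libraries it passed that filter only through groups with more counts. These were iWAT in the cold and, in the second fit, also iBAT.

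At day 0 the Ucp3 level of iBAT exceeded that of each white depot. iBAT averaged 13.8 ± 1.25 CPM (n = 3) and iWAT 1.33 ± 0.34 CPM (n = 4), or 3.33 on the log2 scale (SE 0.90, adjusted p = 0.0104). The difference between iBAT and eWAT, at 0.492 ± 0.687 CPM (n = 3), was 4.69 (SE 1.07, adjusted p = 0.00475). The white side of these differences rests on 2 to 6 counts a library in iWAT and 0 to 6 in eWAT. In the cold the difference between iBAT and iWAT was 0.84 (SE 0.86, adjusted p = 0.573) at day 2 and 0.67 (SE 0.81, adjusted p = 0.59) at day 4. Between iBAT and eWAT it was 1.88 (SE 0.91, adjusted p = 0.153) at day 2, which did not pass, and 3.11 (SE 1.01, adjusted p = 0.032) at day 4, where iBAT548 with its missing value makes the ranges overlap. The day 4 call was lost without any one of iBAT550, iBAT555, eWAT548, eWAT551 or eWAT553 (2.51 to 3.35, adjusted p from 0.0674 to 0.121), and was 3.78 without iBAT548 (adjusted p = 0.00364, with 0.00364 to 0.315 over 40 alternatives).

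No Ucp3 change in the cold passed over all genes. In iWAT the log2 change was 1.59 (SE 0.72, adjusted p = 0.467) at day 2 and 1.85 (SE 0.66, adjusted p = 0.504) at day 4. In iBAT it was -0.81 (SE 0.90, adjusted p = 0.734) and -0.78 (SE 0.96, adjusted p = 0.909), and the day 4 value was -0.17 (SE 0.51) without iBAT548. Over 19 alternatives the iBAT value ran from -1.11 to -0.01 at day 2 and from -1.42 to -0.17 at day 4, so it came close to 0 on both days. The iBAT change minus the iWAT change was -2.49 (SE 1.21, adjusted p = 0.477) at day 2 and -2.66 (SE 1.21, adjusted p = 0.814) at day 4, so that the depots' opposite estimates were not shown to differ.

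Skeletal muscle, the other main site of Ucp3, left transcripts in these samples. Summed muscle markers (15 of 16 listed genes with a row) had 19900 to 62400 CPM in iBAT at day 0, 8690 to 12500 CPM at day 2 and 5020 to 22500 CPM at day 4. All 14 muscle genes tested in iBAT had a negative log2 change at day 2, with a median of -1.88 beside 0.01 for all genes, and 0 of the 14 passed. In iWAT the sums were 40.4 to 2840 CPM at day 0, 25.4 to 85.5 CPM at day 2 and 24.2 to 1180 CPM at day 4. All 11 muscle genes tested there had a negative log2 change on both days, and 0 passed. Their medians were -4.64 at day 2 and -1.52 at day 4, beside -0.08 and -0.01 for all genes. The library iBAT548, with a missing Ucp3 value, had a sum of 22500 CPM and 5300 CPM of Ckm, the muscle creatine kinase. The part of muscle RNA in the Ucp3 level of iBAT or iWAT was not tested.

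**Figure D5:**
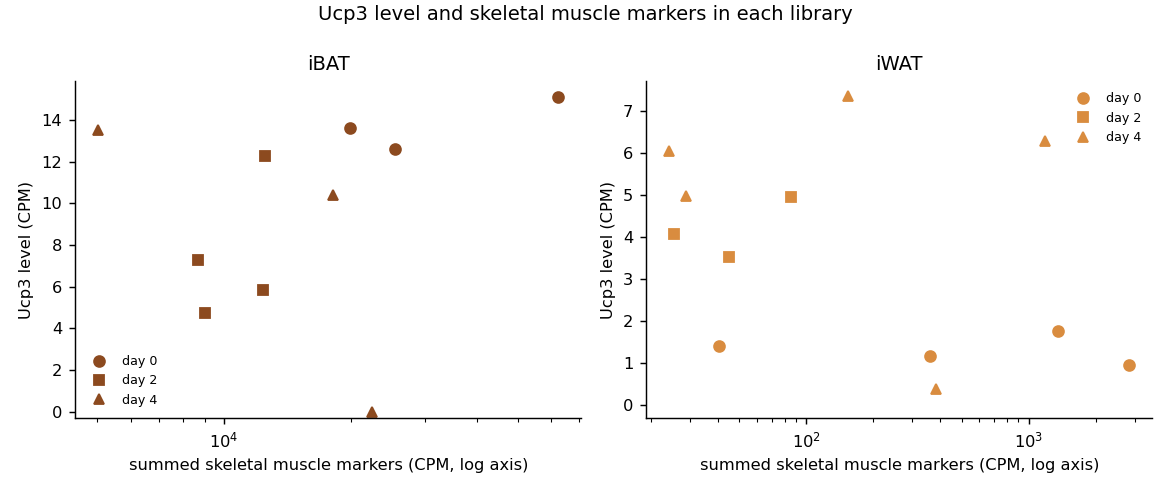
Ucp3 level in CPM against the summed level of 15 skeletal muscle markers (CPM, log axis) in each iBAT and iWAT library, with circles, squares and triangles for days 0, 2 and 4. The point at 0 in iBAT is the missing value of iBAT548. In iBAT the 3 day 0 libraries have 12.6 to 15.1 CPM of Ucp3 and 19900 to 62400 CPM of muscle markers, and all 4 day 2 libraries lie lower on both. In iWAT the libraries of day 2 have more Ucp3 than those of day 0 at muscle sums of 25.4 to 85.5 CPM.

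Per kilobase of transcript, which allows levels of different genes to be set side by side, Ucp1 made up 97.7% to 99.9% of the family's transcripts in the 10 iBAT libraries. In iWAT its share was 12.1% to 71.1% at day 0, 86.1% to 96.9% at day 2 and 58.2% to 99.6% at day 4. In eWAT Ucp2 was the main member in all 9 libraries, with 68.2% to 99.8%. Ucp3 reached at most 4.55% of the family, in an eWAT library of day 2.

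The ratio of 2 members within a library does not depend on library scaling. The log2 ratio of Ucp2 to Ucp1 counts in iWAT was -3.89 ± 1.18 at day 2 (SD, n = 3) and -0.03 ± 1.92 at day 0 (n = 4), a difference of -3.86 with no overlap (exact permutation test, two-sided p = 0.0286, the smallest it can give, adjusted p = 0.127 over 12 tests). The ratio of Ucp3 to Ucp1 in iBAT was -11.22 ± 0.85 at day 2 (n = 4) and -9.03 ± 0.50 at day 0 (n = 3), a difference of -2.20 (exact permutation p = 0.0286, adjusted p = 0.127). In iWAT the ratio of Ucp3 to Ucp1 was -9.24 ± 0.92 at day 4 (n = 5) and -6.57 ± 1.86 at day 0 (n = 4), a difference of -2.67 (exact permutation p = 0.0317, adjusted p = 0.127). None of the 12 exact permutation tests of ratios passed after adjustment, and those of 3 against 3 libraries could not go below p = 0.1.

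Genes whose pattern was most like that of a member were ranked by Pearson's r among 8379 genes (8380 for Ucp3), as a description. Over the 9 group means of depot and day, the 5 most like Ucp1 were Cox7a1 (r = 0.989), a cytochrome oxidase subunit, Cidea (0.987), the proton channel gene Otop1 (0.984), Acacb (0.98), which makes malonyl-CoA at mitochondria, and the fatty acid binding protein gene Fabp3 (0.976). Ucp3 stood at r = 0.821 with Ucp1, and Ucp2 at -0.131. The 9 means come from only 3 depots, so that the order of the depots enters these values.

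Deviations of the 31 libraries from their depot mean take that order away. By these, Ucp1 was most like the carrier gene Slc25a34 (r = 0.837), the fatty acid elongase gene Elovl3 (0.831), Cox7a1 (0.808), the monocarboxylate transporter gene Slc16a1 (0.804) and Pdhx (0.773), a part of pyruvate dehydrogenase. Ucp3 was most like 9430037G07Rik (0.913), Leng1 (0.782), Pigq (0.766), Pdk4 (0.764), whose kinase inhibits pyruvate dehydrogenase, and Lrtm1 (0.76). Ucp2 was most like Bop1 (0.924), a ribosome assembly factor, Ppp4c (0.905), a phosphatase subunit, Rnf130 (0.899), Zfp746 (0.898) and Il1rap (0.895), a subunit of the interleukin 1 receptor. Over the group means Ucp2 was most like Thoc1 (0.969), Rngtt (0.965), Rpl3 (0.953), Bax (0.939) and Tuba1c (0.938), and Ucp3 most like Ube2d-ps (0.952), Ddo (0.947), Rwdd4a (0.943), P2rx5 (0.939) and Ptpn4 (0.928). Libraries share depth and the axis described above, so these values show likeness only. The Ucp3 values, by deviations and by group means, also include iBAT548, where Ucp3 is missing and its true level is not known. Pdk4 was low in that library too, with 581 CPM against 4710 and 5210 CPM in iBAT550 and iBAT555. How far the Ucp3 ranking rests on iBAT548 was not tested.

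The known regulators of Ucp1 and the other brown adipocyte genes were set beside it. At day 0, iBAT exceeded iWAT in 12 of the 16 brown adipocyte genes tested (8.12% of all genes were higher in iBAT) and eWAT in 12 of 16 (5.07% of all genes), with 2 lower than in eWAT, and the median log2 differences were 3.30 and 5.84, beside -0.18 for all genes in both. Between iBAT and iWAT, Fabp3 differed by 5.65, Cpt1b, which brings fatty acids into mitochondria, by 4.75, and Cidea by 4.48 (SE 0.68, adjusted p = 4.54e-05). The summed muscle markers also differed at day 0, with 19900 to 62400 CPM in iBAT and 40.4 to 2840 CPM in iWAT. The part of muscle RNA in these gene differences was not tested. Of 12 tested regulators, 5 were higher in iBAT than in iWAT (8.12% of all genes), among them Dio2, which activates thyroid hormone in the tissue (3.15, SE 0.77, adjusted p = 0.0053), and Adrb1, a beta-adrenergic receptor (2.97, SE 0.54, adjusted p = 0.000325). The beta-adrenergic receptor gene Adrb3 was lower in iWAT than in eWAT (-1.82, SE 0.55, adjusted p = 0.0397).

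In the cold 4 of 16 brown adipocyte genes rose in iBAT at day 2 (0.133% of all genes did), with a median log2 change of 1.31 for the 16 beside 0.01 for all genes. Ckb, a creatine kinase, rose by 4.33 (SE 0.56, adjusted p = 0.0257), Elovl3 by 3.73 (SE 0.58, adjusted p = 0.0389) and Dio2 by 3.44 (SE 0.55, adjusted p = 0.0389), while Bmp8b had 3.55 (SE 0.73, adjusted p = 0.0932). Of 19 alternatives, Ckb passed in 12 (adjusted p from 1.42e-13 to 0.226) and Elovl3 and Dio2 in 8 each (up to 0.269 and 0.274). Among these, the alternative without eWAT516, eWAT532, eWAT551 and iWAT555 is the main iBAT fit again. All 3 calls were lost with library size alone and without any one of iBAT516, iBAT517, iBAT518, iBAT535, iBAT539 or iBAT555, and those of Elovl3 and Dio2 also without iBAT532, iBAT534 or iBAT550 and with all libraries in 1 fit. Dio2 was also the only one of 11 tested regulators to pass, and the median of these was -0.04, with Irf4, a transcription factor of the Ucp1 programme, at -3.82 (adjusted p = 0.295). Elovl3 had 1170, 698, 755 and 431 CPM in iBAT at day 2, against 65.6, 18.2 and 97.8 CPM at day 0, so that its groups did not overlap, whereas those of Ucp1 did. How many of all genes separate in this way was not counted. In iWAT 0 of 14 brown adipocyte genes passed on either day. Their median log2 change was 1.85 at day 2 and 1.88 at day 4, with Elovl3 at 4.18 (SE 0.98, adjusted p = 0.252) and 3.55 (SE 0.91, adjusted p = 0.474). In eWAT 0 of 10 passed, with medians of 0.28 and -0.59.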

How the data were processed

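The authors deposited 1 table per depot of raw counts per RefSeq transcript accession. Per the submitters' processing notes, cutadapt and BWA were used with build mm10. Versions, annotation release, strand use, the way reads were counted and any removal of duplicates are not given in the sources used here. The tables hold missing values and no 0, and missing values were taken as 0 counts. Of 17334 accessions, 17030 took a symbol from RefSeq (GRCm38.p6), 105 from GENCODE M21 and 199 had none, and 932 share a symbol, for which the row with the highest total was used. The deposited counts carry no molecular identifiers, so counting intervals and floors cover counting error only. Nothing says whether label numbers mark animals, so p values measure the spread between these samples. Replicates were not one library deposited again: the chi-square per degree of freedom between replicates was at least 11.8.

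The main tests used edgeR 4.0.16 under R 4.3.3 (TMM, filterByExpr with minimum count 10 and minimum total 15, robust quasi-likelihood F-tests, two-sided, Benjamini-Hochberg over all genes of a comparison, threshold 0.05). Cold changes came from 1 fit per depot, and depot differences and differences of changes from 1 fit of all 31 libraries. The SE of a log2 change was taken as its size over the root of F. Ratios used counts with 0.5 added and exact permutation tests. CPM was scaled by the TMM factors of the fit of all libraries. Lengths per kilobase are those of the exons of a GENCODE M21 transcript within the RefSeq span of the gene. The library score is the projection of a library on the first within-group axis of the other 2 depots, from log2 CPM with a prior count of 2. The members were left out of the projection, but Ucp1 and Ucp2 were among the genes used to find the axis. Scripts were tested on simulated counts.

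Alternatives were DESeq2 1.42.0, no filter, library size alone, RLE factors, summed accessions, the score as a covariate, the label number as a block, fits of all libraries for cold changes, and leaving out each library or iBAT539 and iBAT548. Leaving out eWAT516, eWAT532, eWAT551 and iWAT555 was added after the data were seen. Named genes were the members, of each list the 3 largest changes past the threshold and the largest that was not, in the comparison described, and the 5 genes most like each member among genes of at least 5 CPM on average. Elovl3 in iWAT is the list's largest change not past it. Members, lists and tests were chosen with earlier results of these data known. Some listed genes have no row and were not analysed here.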

Additional observations from a re-analysis of the deposited data

How the results depend on the processing

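RLE factors and library size alone kept the direction of each called member difference and its side of the threshold, in 69 of 69 member results each. Summed accessions did so too, but each member has 1 row, so its own counts could not change there. With library size alone the log2 difference of the median gene moved by up to -0.51 (iBAT minus eWAT at day 2). DESeq2 also called Ucp1 in iWAT at day 2 (4.83) and day 4 (3.96), Ucp3 in iWAT minus eWAT at day 4 (2.42, adjusted p = 0.0356) and the Ucp1 day 2 change of iWAT minus that of eWAT (5.62). The score as a covariate called Ucp2 at day 4 in iBAT minus iWAT (-1.64), Ucp2 in iBAT minus eWAT (-1.64) and Ucp3 in iWAT minus eWAT at day 4 (2.83, adjusted p = 0.0356). Without iBAT539 and iBAT548 the last was 2.41 (adjusted p = 0.027). With no filter, Ucp3 in eWAT had log2 changes of 1.95 at day 2, 0.78 at day 4 and -1.17 between days 4 and 2, and 1.92, 0.76 and -1.16 with all 31 libraries in 1 fit, none called. Leaving out 1 library at a time gave 3.86 to 5.10 for Ucp1 in iWAT minus eWAT at day 0, 2.51 to 3.78 for Ucp3 in iBAT minus eWAT at day 4 and 2.17 to 2.77 for Ucp3 in iWAT minus eWAT at day 4, which passed without iBAT548 or iWAT555. Without eWAT516, eWAT532, eWAT551 and iWAT555, an alternative chosen after seeing the data, Ucp3 in iBAT minus eWAT at day 4 was 2.93 (adjusted p = 0.0655). This alternative kept 68 of 69 member results on their side of the threshold, where those within iBAT could not change because no iBAT library was left out. It called 4 genes in iWAT at day 4, 1 for the day 4 change of iBAT minus iWAT, and 484, 743 and 584 for iWAT minus eWAT at days 0, 2 and 4 (863, 1125 and 1097 in the main test). The cause of these moves was not tested.

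Label numbers recur across depots within a day. Of 23 same-numbered pairs 7 had correlated deviations over 0.1 (range -0.552 to 0.42), and 3 of 28 libraries correlated best with their own number, so the numbers were not taken to pair the samples. The check cannot exclude shared animals, because the first axis held 43.7% to 55.4% of the variance of these deviations in each depot. With the label number as a replicate block, 42 of 45 member results kept their side of the threshold. The others were Ucp3 in iBAT minus iWAT at day 0 (3.54, adjusted p = 0.0677), Ucp1 in iBAT minus iWAT at day 4 (3.15, adjusted p = 0.0524) and Ucp3 in iBAT minus eWAT at day 4 (2.93, adjusted p = 0.315). With the block 4.82% of genes were called for iBAT minus iWAT at day 2 (15.6% without it), 4.72% for iBAT minus eWAT at day 2 (17.8%) and 6.22% for iWAT minus eWAT at day 4 (9.94%).

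Of all genes in iBAT at day 2, 13 were called, against 306 with DESeq2, 40 with no filter, 47 with the score, 1 with library size alone, 64 without iBAT539 and iBAT548, 22 with all libraries in 1 fit, and 0 to 80 when 1 library was left out. In iBAT at day 4, 0 were called, against 83 with DESeq2, 1 with no filter, 20 with the score and 5 without iBAT539 and iBAT548. In iWAT, all libraries in 1 fit called 7 at day 2 and leaving out 1 library up to 4 at day 4. DESeq2 called 2 genes for iWAT day 4 minus day 2, 1 for eWAT, and 42, 28 and 11 for the day 4 changes of iBAT minus iWAT, iBAT minus eWAT and iWAT minus eWAT. The score called 8 for the first of these and 1345 for iWAT minus eWAT at day 0 (863 without it). For iBAT minus eWAT, library size alone called 3029 at day 2 (1963) and leaving out iBAT539 and iBAT548 called 1275 at day 4 (1993). With 1 library left out, calls between depots ran from 986 to 2283 for iBAT minus iWAT over the 3 days, from 586 to 2244 for iBAT minus eWAT and from 390 to 1368 for iWAT minus eWAT. Depth limits Ucp3 most: it rests on 0 to 9 counts in eWAT and 2 to 6 in iWAT at day 0.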

Other observations

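Other mitochondrial carriers with reported proton leak and the genes of mitochondrial antioxidant defence were also measured. At day 0 Slc25a4, the adenine nucleotide translocase of heart and muscle, stood 4.11 higher in iBAT than iWAT on the log2 scale (SE 0.94, adjusted p = 0.00287) and Slc25a5, another translocase, 1.19 higher (SE 0.38, adjusted p = 0.0311), while Slc25a30 had -1.79 (SE 1.09, adjusted p = 0.258). Of 8 tested antioxidant genes, iBAT exceeded iWAT in 3 and eWAT in 3, where 8.12% and 5.07% of all genes were higher in iBAT. Sod2, the superoxide dismutase of the matrix, differed by 1.87 (SE 0.49, adjusted p = 0.00836) and 1.96 (SE 0.54, adjusted p = 0.0192). None of these carriers and antioxidant genes passed within a depot at day 2 or day 4 against day 0. The muscle marker levels given above stand beside the Slc25a4 values too, and their part was not tested.

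Genes of fatty acid oxidation and PPAR targets were often higher in iBAT than in the white depots. Of 19 tested at day 0, 11 were higher and 1 lower in iBAT than iWAT (8.12% of all genes higher), and 10 were higher and 1 lower in iBAT than eWAT (5.07% of all genes higher). The part of muscle RNA in these differences was not tested. Between iWAT and eWAT 1 of 19 was higher (5.02% of all genes), with a median log2 difference of 0.03. Pdk4 was higher in iBAT by 4.39 (SE 0.66, adjusted p = 3.87e-05) and 7.03 (SE 0.84, adjusted p = 3.8e-06), and it was the gene higher in iWAT than in eWAT, by 2.64 (SE 0.67, adjusted p = 0.013). In iBAT it had 581 CPM in iBAT548, the library with a missing Ucp3 value, and 4710 and 5210 CPM in the other day 4 libraries.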
